A study of Mus musculus with 6 samples.

Results

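The 42 mouse genes described here encode factors that start and elongate protein synthesis in the cytosol, or inhibitors of them (Eif4ebp1, Eif4ebp2 and Eef2k). They comprise genes for 12 subunits of initiation factor eIF3, 23 other genes of initiation (named Eif) and 7 genes of elongation (named Eef). They were taken by symbol, through their NCBI gene IDs, from a table of 18019 genes, and all 42 were found and passed the expression filter. Expression was measured by RNA sequencing of heart tissue from wild-type mice, with 3 libraries in each of 2 groups, taken 8 weeks after transverse aortic constriction (TAC). TAC narrows the aorta and overloads the left ventricle, and both groups had it. VNS-TAC mice had received rAAV-ChAT-hChR2[H134R]-GFP in the dorsal vagal motor nucleus (DVMN), a virus in which the promoter of choline acetyltransferase drives a light-activated channel so that vagal neurones can be switched on by light. Ctrl-TAC mice had received rAAV-ChAT-GFP, which carries the fluorescent protein alone. The labels say no more about the light given. No strain, age or sex is given in the sources used here, and no group without TAC was analysed here. Nothing in the labels says that each library is a separate animal, and the p-values therefore reflect only how far these libraries scatter, which may be technical.

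Initiation begins when eIF4E binds the cap at the start of a messenger RNA and, together with the scaffold eIF4G and the helicase eIF4A, prepares it for the small ribosomal subunit. The small subunit arrives with eIF3, with eIF1 and eIF1A, and with eIF2, which carries the initiator tRNA and is recharged with GTP by eIF2B. eEF1A then brings each aminoacyl-tRNA to the ribosome and eEF2 moves the ribosome along. In heart muscle this machinery is known as a point of control in growth under load, because 4E-binding proteins restrain eIF4E and the kinase encoded by Eef2k restrains eEF2.

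FPKM counts fragments per kilobase and relative to library size, and its sum per library ranged from 516493 to 585330. Steps in the low values put the depth at about 13540000 to 15680000 fragments per library, and the member with the fewest, Eif2b1, had an estimated 348 fragments in its lowest library. VNS-TAC 3 stood apart on the first principal component, which held 48% of the variance, at 46.4 against -16.6 to 4.64 in the others, and VNS-TAC 1 on the second at 36.5 against -18.3 to 4.54. Cardiomyocyte markers were plainly present, with all 9 of 9 detected and a summed level of 38048 to 55177 FPKM in VNS-TAC and 41960 to 42885 in Ctrl-TAC. The 9 fibroblast markers summed to 820.2 to 1204 against 1254 to 1276 FPKM, the 9 endothelial markers to 657 to 912 against 955 to 1007, the 9 macrophage markers to 238 to 455 against 349 to 381 and the 9 neutrophil markers to 48.0 to 103 against 2.78 to 6.71. The 8 smooth muscle and pericyte markers summed to 181 to 220.4 against 229 to 369.5 FPKM, the 6 red blood cell markers to 25.1 to 1504 against 183 to 578, and the 8 atrial markers to 3905 to 9181 against 3103 to 10004. The 8 skeletal muscle markers summed to 988 to 2710 against 1617 to 1715 FPKM, and the lymphocyte and the neuronal and glial markers (8 each) to at most 2.17 and 5.35 FPKM in any library. No marker was at 0 in all 6 libraries, and the part of cell composition in the results that follow was not tested. In such bulk tissue, fewer cells of a type and less RNA per cell cannot be told apart.

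Across the 42 genes, the eIF3 subunits and Eef genes mostly lay above Ctrl-TAC on average, many of them with overlap between groups. Eif4e, Eif4g1, Eif4g2 and Eif4a2 lay below it, with every VNS-TAC value under every Ctrl-TAC value. No gene passed the adjusted threshold in the main comparison. Groups were compared by limma on log2(FPKM + 1), a scale on which fold changes of low genes are understated, with Benjamini-Hochberg adjustment over all 11422 genes tested. At an adjusted p under 0.05 limma gave 0 of the 42 members, and 0.0% of all genes tested. At an unadjusted p under 0.05 it gave 9 members, namely 7 higher (Eif3f, Eif3g, Eif3h, Eif3k, Eif2b2, Eif2b5 and Eef2k) and 2 lower (Eif4e and Eif4g2), where 15.0% of all genes passed, 3.79% higher and 11.3% lower. These counts moved with single libraries: 12 members were higher without VNS-TAC 1, 2 without Ctrl-TAC 1, 0 without Ctrl-TAC 2 and 1 without Ctrl-TAC 3. Members that were lower numbered 6 without VNS-TAC 3, 1 without Ctrl-TAC 1 and 1 without Ctrl-TAC 2. Over all 11422 genes the calls moved as well. Those higher went from 433 to 810 without VNS-TAC 1, and to 208, 176 and 243 without Ctrl-TAC 1, 2 and 3. Those lower went from 1286 to 1905 without VNS-TAC 3, and to 627 and 590 without Ctrl-TAC 1 and 2. The member counts moved with scaling too, to 13 higher with size factors and 1 higher with every library rescaled to the same sum. With the GC trend of each library removed, 14 members were higher and 0 lower. Over all genes, 790 were higher with size factors, 213 were higher after rescaling, and 778 were higher and 860 lower with GC trends removed. Of all genes at an unadjusted p under 0.05, the share that was higher was 25.2%, and it was 46.7% with size factors, 54.4% after quantile normalization, 10.8% after rescaling to the same sum and 47.5% with GC trends removed. Limma with array weights put 3 members past the adjusted threshold, Eif4e, Eif4a2 and Eef2k, where 8.9% of all genes passed. That fit weights VNS-TAC 2 at 2.82 and VNS-TAC 1 and 3 at 0.246 and 0.247.

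In 11 members all 3 VNS-TAC values lay above all 3 Ctrl-TAC values and in 4 they all lay below, where 8.01% and 17.4% of the genes tested did. The fitted difference was above 0 in 29 of the 42 members, and in 38.2% of all genes tested. The median log2 fold change was 0.16 over the members and -0.08 over all genes tested. Over the members it was 0.048 without VNS-TAC 3, 0.067 with array weights and 0.087 after rescaling to the same sum. Among the 23 other Eif genes the directions were mixed, with 13 above 0 and a median of 0.03 that was -0.05 after rescaling to the same sum and -0.03 without VNS-TAC 3. Because the members were chosen with earlier results of these data known, their counts carry no test of their own.

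**Figure D1:**
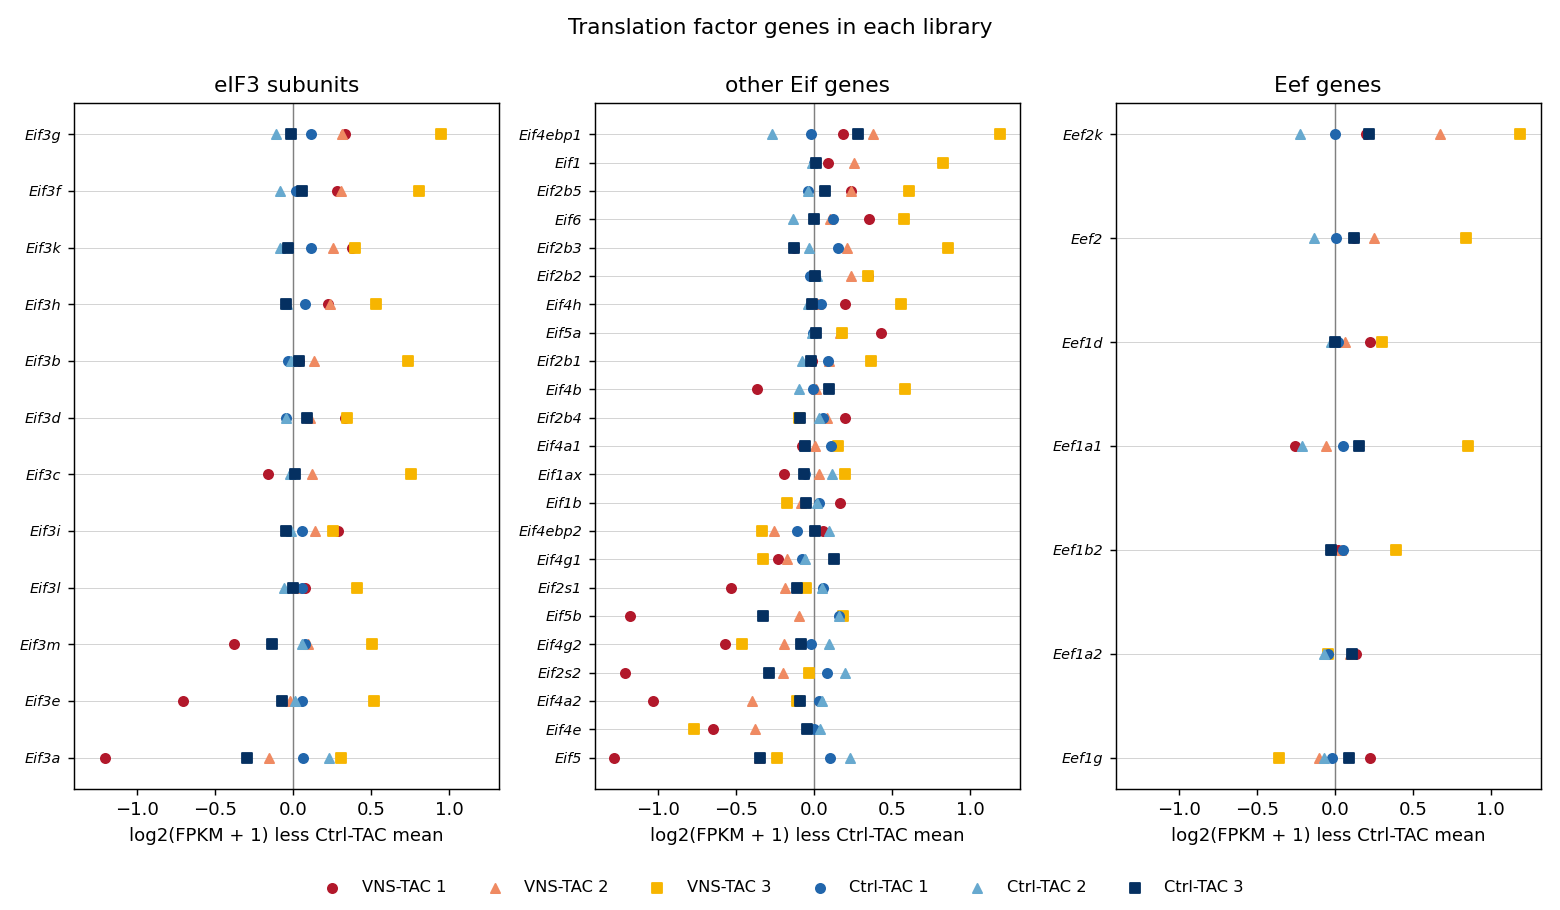
Level of each of the 42 genes in each library as log2(FPKM + 1) less the Ctrl-TAC mean of that gene (horizontal axis), with 1 row per gene ordered by fitted difference, 1 panel per gene group and 1 marker per library. VNS-TAC 3 is the highest of the 6 libraries for 28 genes, and VNS-TAC 1 and Ctrl-TAC 2 are each the lowest for 14.

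**Figure D2:**
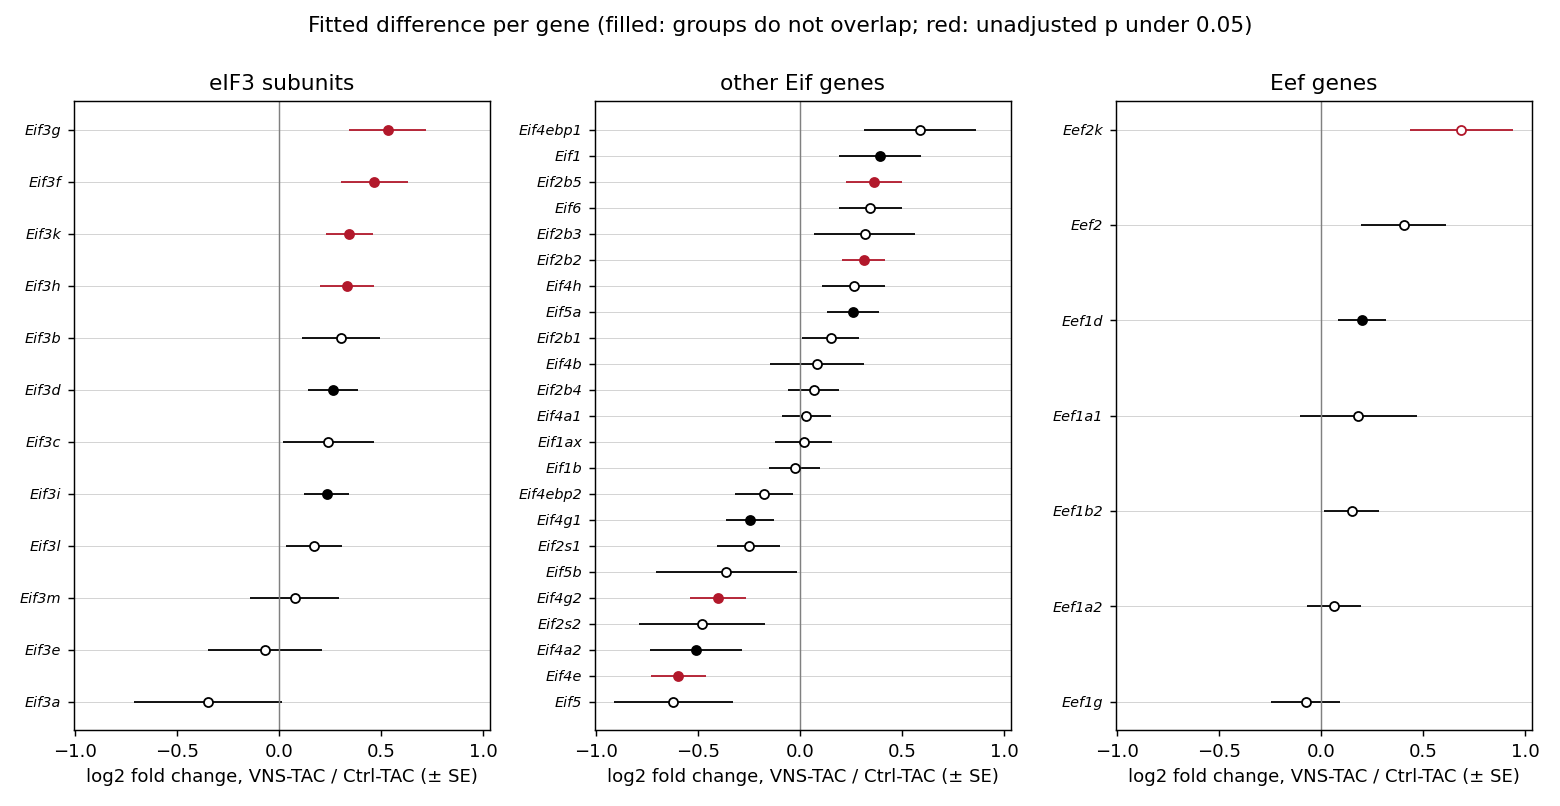
Fitted log2 difference (VNS-TAC less Ctrl-TAC) of each gene, with bars of 1 SE from limma on 3 libraries against 3. Filled points mark genes whose groups do not overlap and red points an unadjusted p under 0.05, and 10 of the 12 eIF3 subunits lie above 0.

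Eif4e had the smallest p of the 42 genes. Its product is the protein that binds the mRNA cap, and the gene lies on chromosome 3 from 138526191 to 138559696 (GRCm38.p6). With libraries always given in the order 1 to 3, it was at 51.3, 62.1 and 47.2 FPKM in VNS-TAC libraries 1 to 3 and at 81.2, 83.4 and 78.4 FPKM in the Ctrl-TAC libraries. Every VNS-TAC library was thus below every Ctrl-TAC library. The log2 fold change was -0.60 ± 0.13 (SE), which missed the threshold (limma adjusted p = 0.197). It was -0.57 without VNS-TAC 1, -0.51 without VNS-TAC 3 and -0.31 with the GC trend of each library removed.

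Ahead of one of its 2 annotated starts, Eif4e carries the E-box hexamer CACGTG at positions -228 and -64. The hexamer reads the same on both strands. These 2 stretches, at chr3:138527018-138527072 and chr3:138527177-138527236 on the plus strand of GRCm38.p6 (RefSeq), are shown because Eif4e is the member with the clearest separation of groups, and capitals mark the hexamer.
Eif4e at -228: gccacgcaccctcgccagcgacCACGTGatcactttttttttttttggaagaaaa
Eif4e at -64: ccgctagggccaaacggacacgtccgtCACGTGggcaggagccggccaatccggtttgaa
Of the 33 members with a RefSeq promoter window (250 bases before to 50 after an annotated start), 11 hold CACGTG, or 33.3%, against 12% of the 9113 genes tested that have such a window. The 11 did not lean one way, with 7 above 0 and 4 below. A match is a description of the sequence and shows no binding.

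The eIF4G family genes Eif4g1 and Eif4g2 were lower on average, and Eif4g3 is not among the members. Eif4g2, which encodes a relative of eIF4G that lacks the eIF4E-binding part (chromosome 7), was at 90.4, 118 and 97.9 FPKM in VNS-TAC libraries 1 to 3 against 133, 144 and 127 in the Ctrl-TAC libraries. The groups did not overlap, and the log2 fold change was -0.41 ± 0.14 (SE; limma adjusted p = 0.264), or -0.18 with the GC trend removed. Eif4g1, the main scaffold of the cap complex, was at 113, 117 and 105 against 126, 127 and 145 FPKM, again without overlap (log2 fold change -0.24 ± 0.12; limma adjusted p = 0.366).

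The 2 genes for the helicase eIF4A differed from each other. Eif4a1 was at 109, 116 and 128 FPKM in VNS-TAC libraries 1 to 3 and at 124, 110.2 and 110.4 in Ctrl-TAC, so its groups overlapped throughout. Its close paralogue Eif4a2 was at 66.5, 104 and 127 FPKM against 139.7, 142 and 129, all 3 VNS-TAC values lying below Ctrl-TAC but VNS-TAC 3 only just so (log2 fold change -0.51 ± 0.23; limma adjusted p = 0.342). The log2 fold change of Eif4a2 was -0.25 without VNS-TAC 1, and with the GC trend removed it was -0.22. The ratio of Eif4a2 to Eif4a1, which the scaling of a library does not move, was 0.61, 0.897 and 0.991 in VNS-TAC libraries 1 to 3 and 1.13, 1.29 and 1.16 in Ctrl-TAC. On the log2 scale the ratio differed by -0.54, and by -0.33 without VNS-TAC 1. Reads of such paralogues can be split in counting, and Eif4a2 also overlaps Rfc4 and 2 small nucleolar RNA genes, so both values are uncertain. The cofactors of the helicase overlapped between groups: Eif4b averaged 77.7 ± 26.5 against 70.9 ± 4.85 FPKM (SD, n = 3) and Eif4h 87.0 ± 17.1 against 71.5 ± 2.06.

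Eif4ebp1, whose product holds eIF4E away from eIF4G until mTORC1 phosphorylates it, stood at 132, 151 and 266 FPKM in VNS-TAC libraries 1 to 3 and at 114, 96.0 and 141 in Ctrl-TAC. VNS-TAC 1 lay under Ctrl-TAC 3, so the groups overlapped, and VNS-TAC 3 was far above the rest (log2 fold change 0.59 ± 0.28; limma adjusted p = 0.358, and 0.28 as log2 fold change without VNS-TAC 3). Eif4ebp2, for another 4E-binding protein, was lower in amount, at 29.3, 23.4 and 22.2 against 26.1, 30.3 and 28.3 FPKM, and overlapped. The ratio of Eif4ebp1 to Eif4ebp2 was 4.49, 6.43 and 12 in VNS-TAC libraries 1 to 3 against 4.37, 3.17 and 4.99 for Ctrl-TAC, with VNS-TAC 1 inside the Ctrl-TAC range.

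The ratio of the inhibitor Eif4ebp1 to its target Eif4e, chosen after the values were seen, was 2.57, 2.43 and 5.63 in VNS-TAC libraries 1 to 3. In Ctrl-TAC it was 1.40, 1.15 and 1.8. All 3 VNS-TAC ratios exceeded all Ctrl-TAC ratios, with a difference of 1.18 on the log2 scale that was 0.80 without VNS-TAC 3. These are ratios of RNA, and neither protein nor its phosphorylation was measured.

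**Figure D3:**
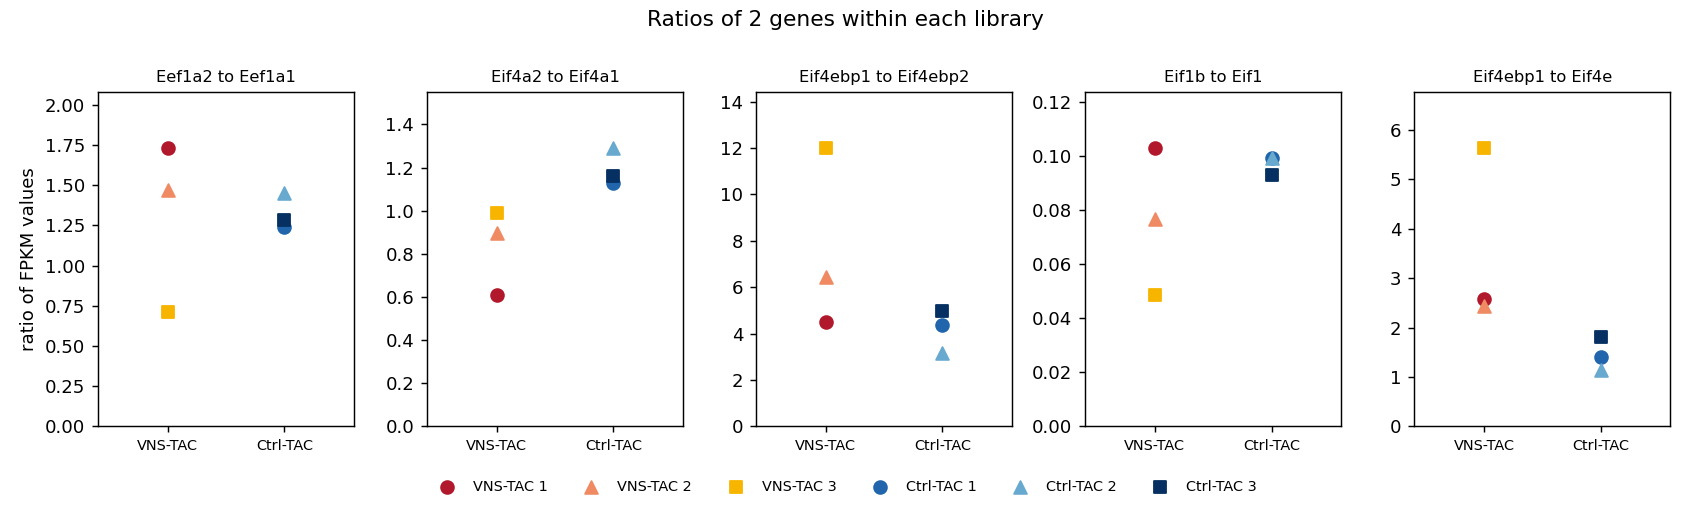
Ratio of the FPKM values of 2 genes within a library (vertical axes, from 0) for 5 pairs, with 1 point per library and no summary drawn. The groups stand apart for Eif4a2 to Eif4a1 (0.61 to 0.991 in VNS-TAC, 1.13 to 1.29 in Ctrl-TAC) and for Eif4ebp1 to Eif4e, and overlap for the other 3 pairs.

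Among factors that set the start codon, Eif1, which keeps the scanning ribosome from starting too early, was at 570.3, 641 and 950.4 FPKM in VNS-TAC libraries 1 to 3. The Ctrl-TAC libraries were close together at 535, 531 and 539.6 FPKM, below all of VNS-TAC. Its log2 fold change was 0.39 ± 0.20 (limma adjusted p = 0.384), and it was 0.17 without VNS-TAC 3 and 0.24 after quantile normalization. Eif1b, a paralogue of it, was about level at 58.5, 49.2 and 46.1 against 53.2, 52.7 and 50.2 FPKM. The ratio of Eif1b to Eif1 accordingly was 0.103 and 0.0767 in VNS-TAC 1 and 2 but 0.0485 in VNS-TAC 3, against 0.0931 to 0.0993 in Ctrl-TAC. Eif1ax, the gene for eIF1A on the X chromosome, averaged 44.9 ± 6.17 against 44.2 ± 3.30 FPKM (SD, n = 3).

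The eIF2 genes Eif2s1 and Eif2s2 were lower on average and overlapped, and Eif2s3x is not among the members. Eif2s1, whose product is the subunit that stress kinases phosphorylate, was at 8.30, 10.9 and 12.02 FPKM in VNS-TAC libraries 1 to 3 against 12.99, 12.94 and 11.5 in Ctrl-TAC, and Eif2s2 averaged 19.3 ± 7.74 against 26 ± 4.53 FPKM (SD, n = 3). With the GC trend removed, the log2 fold change of Eif2s1 went from -0.25 to 0.03. The genes of eIF2B, the exchange factor that recharges eIF2, lay the other way, with all 5 subunits above 0 and a median log2 fold change of 0.31, which was 0.14 without VNS-TAC 3 and 0.19 with array weights.

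Eif2b5, the catalytic subunit (chromosome 16, 20498795 to 20509325), was at 33.8, 33.7 and 43.9 FPKM in VNS-TAC libraries 1 to 3 and at 27.7, 27.7 and 30.04 in Ctrl-TAC. Eif2b2 (chromosome 12, 85219481 to 85226628) was at 24.0, 22.3 and 24.1 against 18.4, 19.0 and 18.8 FPKM. In both genes the groups stood apart, and Eif2b2 had the narrowest spread of the 5 subunits within each group. Their log2 fold changes were 0.36 ± 0.14 and 0.31 ± 0.11 (SE), with limma adjusted p of 0.296 and 0.264, and that of Eif2b5 was 0.24 without VNS-TAC 3. Eif2b1, Eif2b3 and Eif2b4 overlapped, with log2 fold changes of 0.15, 0.32 and 0.07. Without VNS-TAC 3, those of Eif2b1 and Eif2b3 were 0.042 and 0.044. The 5 subunits were all above 0 in 14 of the 16 alternatives, and 4 of 5 were with every library rescaled to the same sum or without VNS-TAC 1, where Eif2b4 was at -0.01 and -0.003. Among the 14 are the 2 other filters and the limma fits without trend and with robust estimation, which leave each fold change as it was.

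Eif5 and Eif5b, for the GTPase activator of eIF2 and the factor that joins the ribosomal subunits, were lower on average and lowest in VNS-TAC 1. Eif5 was at 15.3, 30.01 and 32.7 FPKM in VNS-TAC libraries 1 to 3 against 41.7, 45.6 and 30.3 in Ctrl-TAC, and its log2 fold change of -0.62 was -0.29 without VNS-TAC 1. For Eif5b the log2 fold change of -0.36 was 0.05 without that library. Eif6, which keeps the large subunit from joining early, was at 29.5, 24.7 and 34.7 against 25.1, 20.8 and 23.0 FPKM, with VNS-TAC 2 under Ctrl-TAC 1. Eif5a, whose product carries the modified amino acid hypusine, was at 411, 343 and 346 against 305, 302 and 309 FPKM without overlap (log2 fold change 0.26 ± 0.13; limma adjusted p = 0.367), with a log2 fold change of 0.11 after quantile normalization. Its gene overlaps Gps2, and whether reads were shared is not known.

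The eIF3 complex is the scaffold that holds the small ribosomal subunit, the mRNA and the other factors together. Of the 12 subunit genes on the list, which leaves out Eif3j1 and Eif3j2, 10 were above 0, with a median log2 fold change of 0.25. In 6 of them, Eif3d, Eif3f, Eif3g, Eif3h, Eif3i and Eif3k, the groups did not overlap, all with VNS-TAC above (8.01% of all genes tested did). Without VNS-TAC 3 the median was 0.15, with 8 above 0 and 6 not overlapping, and without VNS-TAC 1 it was 0.31, with 12 above 0 and 9 not overlapping. With fewer libraries more genes of any kind stand apart, and of all genes tested 12.4% lay above Ctrl-TAC without overlap when VNS-TAC 3 was left out and 14.9% when VNS-TAC 1 was. The median stayed above 0 in all 16 alternatives, between 0.15 and 0.33. The 2 other filters and the limma fits without trend and with robust estimation could not move it.

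Eif3g, an RNA-binding subunit (chromosome 9, 20894349 to 20898590), had the largest difference, at 92.8, 91.4 and 142 FPKM in VNS-TAC libraries 1 to 3 against 79.7, 68.2 and 72.8 in Ctrl-TAC. Its log2 fold change was 0.53 ± 0.19 (limma adjusted p = 0.273), and 0.32 without VNS-TAC 3. Next came Eif3f (chromosome 7, 108934415 to 108941942), a subunit known from muscle, where it is degraded during atrophy. It was at 121, 123 and 175 against 101, 93.9 and 104 FPKM (log2 fold change 0.47 ± 0.17; limma adjusted p = 0.273, and 0.29 as log2 fold change without VNS-TAC 3). VNS-TAC 1 and 2 were alike in both genes and VNS-TAC 3 was higher. Eif3k (chromosome 7, 28971372 to 28981890), a small peripheral subunit, moved little without that library: it was at 134, 123 and 135.5 against 112, 96.9 and 100.4 FPKM, with a log2 fold change of 0.34 ± 0.12 (limma adjusted p = 0.264) that was 0.32 without VNS-TAC 3.

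Eif3h was the most abundant of the listed eIF3 RNAs per length in every library. It was at 223, 224 and 276 FPKM in VNS-TAC libraries 1 to 3 and 200.3, 186 and 185 in Ctrl-TAC (log2 fold change 0.33 ± 0.13, limma adjusted p = 0.307). Eif3d, a subunit that can itself bind the cap of some mRNAs, was at 45.7, 38.8 and 45.9 against 34.8, 34.9 and 38.3 FPKM. Eif3i, a WD-repeat subunit, was at 92.7, 83.6 and 90.7 against 78.7, 75.0 and 73.1 FPKM. Both were thus above Ctrl-TAC in every VNS-TAC library, though Eif3d of VNS-TAC 2 by a narrow margin, and limma gave adjusted p of 0.349 and 0.358.

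In some subunits the VNS-TAC libraries lay on both sides of Ctrl-TAC. Eif3a, the largest subunit, was at 14.4, 31.0 and 43.0 FPKM in VNS-TAC libraries 1 to 3 and at 36.2, 40.7 and 27.98 in Ctrl-TAC. VNS-TAC 1 was the lowest and VNS-TAC 3 the highest of all 6, and the log2 fold change of -0.35 ± 0.36 (limma adjusted p = 0.639) was 0.08 without VNS-TAC 1. Eif3c was at 45.2, 54.9 and 85.8 against 50.6, 49.9 and 50.9 FPKM, a log2 fold change of 0.24 that was -0.02 without VNS-TAC 3. Eif3e and Eif3m showed the same order of VNS-TAC libraries, with Eif3e at 35.5, 57.7 and 84.1 FPKM and Eif3m at 50.3, 70.4 and 93.6, against Ctrl-TAC means of 58.5 ± 2.68 and 65.8 ± 5.31 (SD, n = 3). Among the listed subunits, the level of the most abundant over that of the least was 15.5 in VNS-TAC 1, 7.23 in VNS-TAC 2 and 6.42 in VNS-TAC 3. In Ctrl-TAC it was 5.32 to 6.6. The remaining listed subunits Eif3b and Eif3l overlapped, with log2 fold changes of 0.30 and 0.17 that were 0.086 and 0.052 without VNS-TAC 3.

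Of the listed eIF3 genes, Eif3a, Eif3f and Eif3k also hold CACGTG in the promoter window. Stretches were taken only for members with an unadjusted limma p under 0.05, which leaves out Eif3a (log2 fold change -0.35). Those of Eif3f and Eif3k lie at chr7:108934320-108934379 on the plus strand and chr7:28981900-28981959 on the minus strand (GRCm38.p6, RefSeq), with the hexamer at positions -68 and -44. They are shown because both genes stood above Ctrl-TAC while Eif4e, with the same hexamer, stood below, and capitals mark the hexamer.
Eif3f: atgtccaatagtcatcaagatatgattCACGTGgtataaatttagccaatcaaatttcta
Eif3k: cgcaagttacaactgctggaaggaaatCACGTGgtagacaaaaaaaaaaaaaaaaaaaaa
Messenger RNAs of many translation factors and ribosomal proteins are known to begin with a C and a run of pyrimidines, through which mTORC1 controls their translation. A C followed by at least 6 bases that are each C or T, on the gene's own strand and within 10 bases before to 20 after an annotated start, was found in 8 of 33 members (24.2%), in 28 of 58 ribosomal protein genes (48.3%) and in 16.9% of the 9113 genes tested with a window. The 3 longest of the 8 runs, in capitals, are shown, those of the subunit Eif3f, the eIF2B gene Eif2b5 and the elongation factor gene Eef1a1, in windows at chr7:108934405-108934434 (plus strand), chr16:20498807-20498836 (plus) and chr9:78481705-78481734 (minus).
Eif3f start: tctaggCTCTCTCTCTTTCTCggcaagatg
Eif2b5 start: CTCTTTCTCTCCCTgcaactacaccttcgc
Eef1a1 start: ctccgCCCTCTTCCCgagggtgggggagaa
Annotated starts can be off by some bases, so the absence of a run in the other 25 windows says only that these letters are not there. A run and a CACGTG hexamer can share at most 1 base, the first C of the hexamer.

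Among the Eef genes, 6 of 7 were above 0, the inhibitor gene Eef2k included. Their median log2 fold change was 0.18, and it was 0.11 without VNS-TAC 3 and 0.092 with array weights. In 1 of the 7 (Eef1d) the groups did not overlap, with VNS-TAC above, where 8.01% of all genes did so. Eef2, for the translocase, was at 746, 818 and 1229 FPKM in VNS-TAC libraries 1 to 3 against 690.1, 626 and 747 in Ctrl-TAC. VNS-TAC 1 lay just inside the Ctrl-TAC range and VNS-TAC 3 was far above it (log2 fold change 0.41 ± 0.21; limma adjusted p = 0.386, and 0.19 as log2 fold change without VNS-TAC 3). Eef2k, for the kinase that inactivates eEF2, had the largest log2 fold change of the 42 genes. It was at 9.65, 13.8 and 20.1 FPKM against 8.29, 6.97 and 9.79, so VNS-TAC 1 lay inside the Ctrl-TAC range while VNS-TAC 2 and 3 lay above it. The log2 fold change was 0.69 ± 0.25 (limma adjusted p = 0.281), and 0.44 without VNS-TAC 3. The gene spans chromosome 7 from 120842642 to 120907219 and also has CACGTG in 1 of its promoter windows. It overlaps Gm15774 and Gm36449, and whether reads were shared is not known.

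eEF1A is encoded by 2 genes, of which Eef1a2 is known as the form of muscle and nerve and Eef1a1 as the form of most other cells. Eef1a2 was level, at 957, 932 and 846 FPKM in VNS-TAC libraries 1 to 3 and 848, 831 and 942 in Ctrl-TAC. Eef1a1 was at 554, 635 and 1193 FPKM against 683, 571 and 735, with VNS-TAC 3 above all others and VNS-TAC 1 the lowest. Its log2 fold change of 0.18 ± 0.29 (limma adjusted p = 0.768) was -0.15 without VNS-TAC 3. Eef1a2 exceeded Eef1a1 in 5 of the 6 libraries: the ratio was 1.73, 1.47 and 0.709 in VNS-TAC libraries 1 to 3 and 1.24, 1.45 and 1.28 in Ctrl-TAC. The log2 ratio differed by -0.12 between groups, and by 0.27 without VNS-TAC 3. In that library the summed cardiomyocyte markers were the lowest of the 6, at 38048 FPKM, and the part of this in the ratio was not tested. The 2 genes are near copies in their coding parts, and Eef1a1 is known to have many processed pseudogenes, so its counts are uncertain.

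The exchange factor of eEF1A has 3 subunit genes on the list. Eef1d was at 177, 158 and 186 FPKM in VNS-TAC libraries 1 to 3 against 153, 148 and 151 in Ctrl-TAC (log2 fold change 0.20 ± 0.12; limma adjusted p = 0.433). Its gene overlaps Tigd5, and whether reads were shared is not known. Eef1b2 differed in 1 library only, at 95.2, 96.6 and 123 against 97.3, 92.4 and 92.2 FPKM. Eef1g, a structural subunit, went the other way in that library, at 316, 251 and 210.2 against 266, 257 and 287 FPKM, and its log2 fold change of -0.08 was 0.06 without VNS-TAC 3.

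Set side by side by library, VNS-TAC 3 held the highest mean in each group of genes. Less the Ctrl-TAC mean, the 12 eIF3 subunits averaged, as log2 differences, -0.04, 0.13 and 0.54 in VNS-TAC libraries 1 to 3, and -0.04 to 0.05 in Ctrl-TAC. For the 7 Eef genes the values were 0.10, 0.14 and 0.45, against -0.11 to 0.10, and for the 23 other Eif genes -0.22, -0.02 and 0.18, against -0.05 to 0.03. All 12 eIF3 genes were above their Ctrl-TAC mean in VNS-TAC 3, 10 in VNS-TAC 2 and 8 in VNS-TAC 1, and so were 10 in Ctrl-TAC 1, 3 in Ctrl-TAC 2 and 4 in Ctrl-TAC 3. Of all 11422 genes tested, 5520 were above it in VNS-TAC 3, 4207 in VNS-TAC 2 and 4412 in VNS-TAC 1. In Ctrl-TAC libraries 1 to 3 it was 6447, 6159 and 4793 of them. The 79 cytosolic ribosomal protein genes averaged 0.26, 0.08 and 0.67 in VNS-TAC libraries 1 to 3 and -0.08 to 0.11 in Ctrl-TAC. They too were highest in VNS-TAC 3 but, unlike the eIF3 subunits, were above Ctrl-TAC in VNS-TAC 1. The 42 members held 0.992%, 1.12% and 1.47% of the summed FPKM in VNS-TAC libraries 1 to 3, and 1.04% to 1.14% in Ctrl-TAC.

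**Figure D4:**
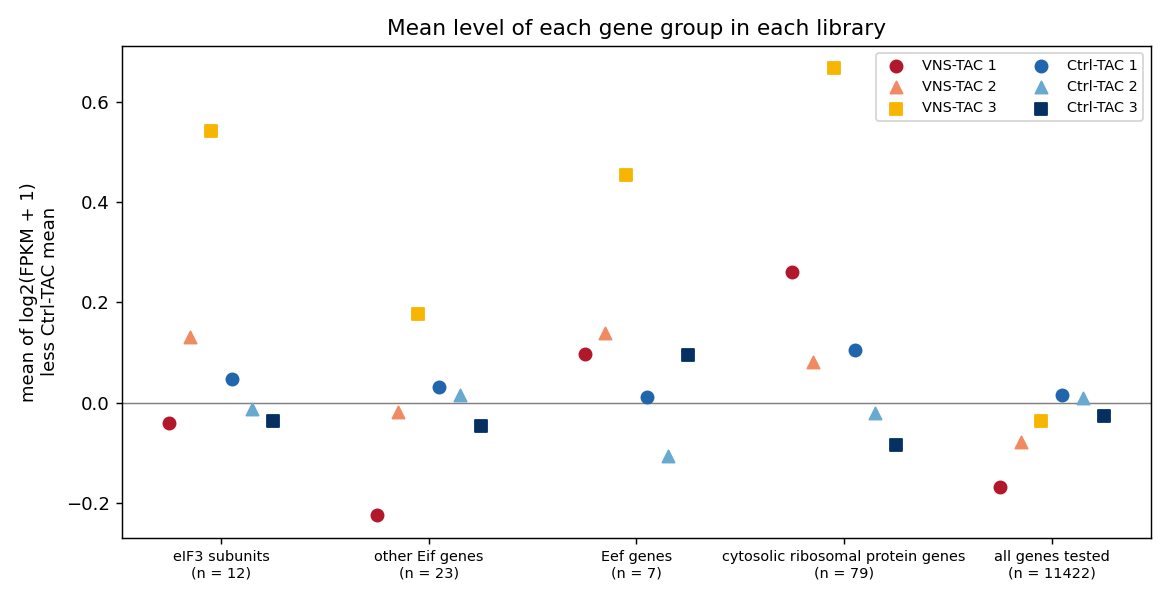
Mean of log2(FPKM + 1) less the Ctrl-TAC mean (vertical axis) over the genes of each group, with 1 point per library and the number of genes under each group. VNS-TAC 3 is the highest library for the eIF3 subunits (0.54), the other Eif genes (0.18), the Eef genes (0.45) and the ribosomal protein genes (0.67), but not for all genes tested.

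The members also differed by base composition. Over all 11319 genes tested with a known GC content, the deviation of VNS-TAC 1 from the mean of all 6 libraries followed GC. The Spearman correlation was 0.549, against -0.418 to 0.0199 in the other libraries. Over the 42 members, whose longest transcripts range from 36.2% GC (Eif3e) to 60.6% (Eef1a2), the level less the Ctrl-TAC mean followed GC at 0.725, 0.48 and 0.207 in VNS-TAC libraries 1 to 3. In Ctrl-TAC it did so at -0.284, -0.509 and 0.59. These are descriptions over genes that share a library and a reference mean. The reference mean differs between all genes and the members, so the sizes of their correlations cannot be compared.

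A boundary of 45% GC, chosen after the values were seen, leaves 11 members below it: Eif3e, Eif2s2, Eif3m, Eif1ax, Eif4a2, Eif4e, Eif2s1, Eif5, Eif4g2, Eif5b and Eif3a. In VNS-TAC 1 all 11 were below the lowest Ctrl-TAC value, and 5 of the 31 others were. In VNS-TAC 2 it was 5 of 11 and 4 of 31, and in VNS-TAC 3 it was 3 of 11 and 5 of 31. No such count is given for all genes tested, over which VNS-TAC 1 followed GC too. Of the 13 members with a log2 fold change below 0, 9 were among these 11. With the GC trend of each library removed, the median log2 fold change of the 11 went from -0.36 to -0.16 and 4 of them were above 0 in place of 2, while the 31 others had a median of 0.26 before and 0.31 after.

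**Figure D5:**
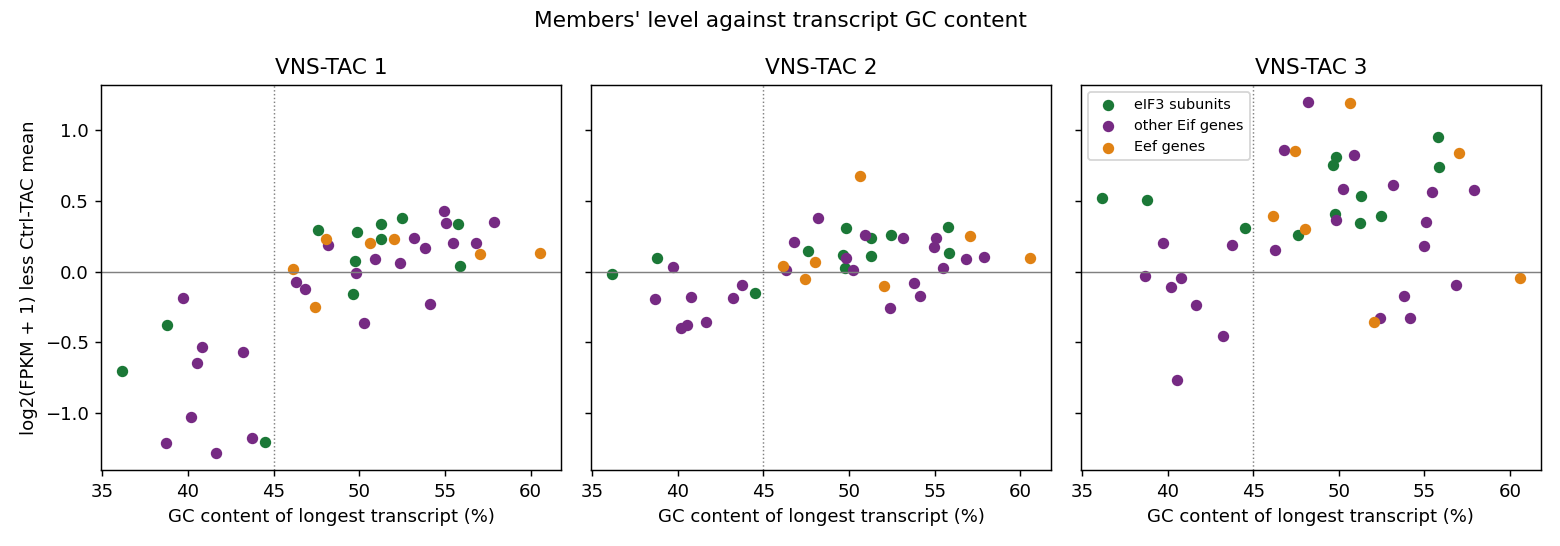
Level of each of the 42 genes less its Ctrl-TAC mean, as log2(FPKM + 1) (vertical axis), against the GC content of its longest transcript in percent (horizontal axis), for VNS-TAC libraries 1 to 3, coloured by gene group, with a dotted line at 45%. In VNS-TAC 1 the 11 genes left of the line have a median of -0.70, against -0.18 and -0.03 in VNS-TAC 2 and 3.

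Genes around these factors are given for comparison, from lists chosen with earlier results of these data known. No gene of these lists passed the adjusted threshold in limma with equal weights. With array weights 1 gene each of the other cytosolic factors, the eIF2 kinase list, the mitochondrial factors and the ribosomal protein genes did. The counts that follow are at an unadjusted p under 0.05, which 3.79% of all genes tested passed as higher and 11.3% as lower, and 38.2% of all genes lay above 0. Of 23 other cytosolic factor genes 15 were below 0 (median log2 fold change -0.17) and 3 passed, all lower, a share close to that of all genes. The median was -0.033 without VNS-TAC 1 and 0.011 with GC trends removed, where 12 of 23 were above 0. Pabpc4, a poly(A)-binding protein, was at 149 ± 6.93 FPKM in VNS-TAC and 191 ± 3.49 in Ctrl-TAC (SD, n = 3), and Paip2, an inhibitor of poly(A)-binding protein, at 77.0 ± 14.0 against 107 ± 12.5. Both pairs of groups stood apart. Of 5 termination and recycling factors 4 were below 0, with a median of -0.28 that was -0.063 without VNS-TAC 1, and 1 passed, Gspt1, which encodes a release factor, at 9.90 ± 1.59 against 13.7 ± 1.79 FPKM. Abce1, which splits spent ribosomes, was at 10.9 ± 3.68 against 15.3 ± 3.23 FPKM and overlapped.

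Of 9 genes for eIF2 kinases and for the subunits that direct eIF2 dephosphorylation or otherwise act on it, 6 were below 0, with a median of -0.28 that was -0.049 without VNS-TAC 1, and 2 passed, both lower. Eif2ak2, the kinase activated by double-stranded RNA, was at 1.10, 2.05 and 2.24 FPKM in VNS-TAC libraries 1 to 3 against 4.03, 3.25 and 3.19 in Ctrl-TAC, and Nck1, an adaptor, at 8.53 ± 0.95 against 12.7 ± 2.73 (SD, n = 3). Of 18 genes of mTORC1 and eIF4E signalling 12 were above 0 (median 0.09) and 0 passed, and without VNS-TAC 3 only 6 were above 0 and the median was -0.037. Rps6kb1, for the S6 kinase, was at 4.66, 10.7 and 13.4 against 14.0, 15.0 and 13.1 FPKM, and Ddit4, an inhibitor of mTORC1, at 62.8, 105 and 102 against 48.1, 84.5 and 57.9, and both overlapped. Of 13 enzymes that modify the factors 9 were above 0 (6 without VNS-TAC 3) and 2 passed, both higher: Eef1aknmt, a methyltransferase of eEF1A, at 3.98 ± 1.004 against 2.39 ± 0.22 FPKM, and Dhps, which makes the first step of hypusine on eIF5A, at 19.4 ± 4.05 against 13.9 ± 0.82.

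Mitochondrial translation factors were lower on average. Of the 10 genes 9 were below 0 (median log2 fold change -0.26) and 2 passed, both lower. Without VNS-TAC 3 the median was -0.15 and with GC trends removed -0.12, with 4 genes above 0 in each case. Mtrf1l, a mitochondrial release factor, was at 2.15 ± 0.16 against 3.37 ± 0.68 FPKM (SD, n = 3), and Mtif2, the mitochondrial initiation factor, at 9.70 ± 2.498 against 14.8 ± 2.62. The 22 genes of cytosolic aminoacyl-tRNA synthetases and their scaffold were split, with 13 above 0 (median 0.03, and -0.016 without VNS-TAC 3 with 10 above 0) and 0 passing. Kars, for lysine, was at 69.8 ± 12.3 against 54.5 ± 1.88 FPKM and Sars, for serine, at 28.9 ± 1.55 against 24.6 ± 1.05, both without overlap. All 79 ribosomal protein genes were above 0 (70 without VNS-TAC 3) and 24 passed, all higher, among them Rps13 at 549.7 ± 60.8 against 377 ± 20.6 FPKM.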

How the data were processed

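Heart RNA of 3 VNS-TAC and 3 Ctrl-TAC libraries was analysed from 1 deposited table of FPKM values, with 2 decimals in the values and the unit named in the file headers. Per the submitters' processing notes the authors used HISAT, featureCounts 1.5.0-p3, DESeq 1.8.3 and the build GRCm38, with no role stated. The annotation and the strand setting are not stated there, and library totals were not used here. Groups came from sample titles, because a treatment tag reads VNS for all. Ctrl-TAC columns matched their samples by library name. VNS-TAC columns carry the numbers 1 to 3, whereas the library names in the labels run from 4 to 6. The text uses the numbers of the table.

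Symbols came from RefSeq GRCm38.p6 for 17890 IDs and from GENCODE M21 for 15, and 114 had none. The 11422 genes whose mean reached 1 FPKM were compared as log2(FPKM + 1) with limma 3.58.1 in R 4.3.3 (intensity trend, no covariates). The script was tested on simulated data. GC content is that of the longest GENCODE M21 transcript. Depth was estimated from the step of 1 fragment in genes under 0.5 FPKM, and was used in no test. Python 3.11.15, pandas 2.3.3 and matplotlib 3.10.9 were used.

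The members and all lists were chosen with earlier results of these data known. Per-library values are given for members with an unadjusted p under 0.05, for those without overlap among the 20 smallest p and for a set of 18 core genes, with Eif3e, Eif3m, Eif5, Eef1b2 and Eef1g added after their values were seen. Of each other pathway list the 2 genes with the smallest p are named, except 1 gene that is not reported here. Alternatives were another pseudocount, 2 other filters, 3 scalings, removal of the GC trend, 3 other limma fits and each library left out.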

Additional observations from a re-analysis of the deposited data

How the results depend on the processing

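Of 672 values of the 42 members under 16 alternatives, 646 kept the direction of the reported value, and 28 members kept it in all 16. The 2 other filters and the limma fits without trend and with robust estimation return the reported log2 fold change of every member. Their values could not change direction, so these counts overstate how far the directions were tried. Without GC trends, the log2 fold changes of Eif3e and Eif2s1 were 0.25 and 0.026, and the median of the other Eif genes was 0.14 in place of 0.03. Size factors gave 0.0062 for Eif3e, 0.048 for Eif1b and 0.00039 for Eef1g. Rescaling to the same sum gave -0.00025 for Eif3m, -0.058 for Eif1ax, -0.0096 for Eif2b4, -0.046 for Eif4a1 and -0.015 for Eef1a2. Quantile normalization gave -0.078 for Eef1a2 and array weights -0.012 for Eif4a1. The cause of these changes was not tested.

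Members past the adjusted threshold numbered 3 with array weights and 0 in the other 15 alternatives. All genes past it numbered 1 when genes under 5 FPKM were left out, 2 with size factors, quantile normalization or GC trends removed, and 1016 with array weights. Members at an unadjusted p under 0.05 numbered 13 higher with size factors, 1 higher after rescaling, 14 higher and 0 lower with GC trends removed, and 11 higher and 5 lower with array weights. All genes at that threshold numbered 790 higher with size factors and 213 higher after rescaling. They numbered 778 higher and 860 lower with GC trends removed, and 924 higher and 2517 lower with array weights.

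With each library left out in turn, all genes past the adjusted threshold ranged from 0 to 3 (3 without VNS-TAC 3 and 3 without Ctrl-TAC 1) and members from 0 to 0. Members higher at an unadjusted p under 0.05 ranged from 0 to 12 and members lower from 1 to 6. Over all genes tested, those higher ranged from 176 to 810 and those lower from 590 to 1905. Medians ranged from 0.15 to 0.32 (eIF3), -0.03 to 0.08 (other Eif) and 0.11 to 0.27 (Eef). Log2 ratios ranged from -0.37 to 0.27 (Eef1a2 to Eef1a1), -0.68 to -0.33 (Eif4a2 to Eif4a1), 0.38 to 1.08 (Eif4ebp1 to Eif4ebp2), -0.67 to -0.13 (Eif1b to Eif1) and 0.80 to 1.40 (Eif4ebp1 to Eif4e). Log2 fold changes crossed 0 for Eif3a (-0.68 to 0.078), Eif3c (-0.018 to 0.44), Eif3e (-0.36 to 0.25), Eif3m (-0.14 to 0.30), Eif1ax (-0.077 to 0.12), Eif1b (-0.12 to 0.044), Eif2b4 (-0.0033 to 0.14), Eif4a1 (-0.032 to 0.087), Eif4b (-0.17 to 0.30), Eif5b (-0.64 to 0.046), Eef1a1 (-0.15 to 0.40), Eef1g (-0.23 to 0.064). No paired analysis was possible because no VNS-TAC column can be tied to a single labelled library.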
